A study of Mus musculus with 12 samples.

Results

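The mitochondrial carrier family Slc25 was examined in whole-kidney RNA-seq of WT and Tet2-/- mice. Its members were taken as the gene symbols that consist of Slc25a and a number, and 47 of the 24421 symbols in the deposited tables were of this form. For the 10 members with several transcripts, the transcript with the highest total count stood for the gene. Male C57BL/6 mice at 6 weeks old gave 12 libraries in 4 groups of 3, named here WT baseline, Tet2-/- baseline, WT IR and Tet2-/- IR. Baseline mice were healthy controls without an operation, and both genotypes came from breeding of Tet2+/- mice, so the disrupted allele was inherited and not limited to a kidney cell type. In the ischemia-reperfusion (IR) groups, the right kidney was without blood flow for an hour and was then the only kidney left, and its RNA was taken the next day. The IR comparisons therefore include the effect of surgery and of the removed kidney, and no library used here is from a sham-operated kidney.

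Carriers of this family sit mainly in the inner membrane of mitochondria, which is closed to charged metabolites. They exchange ATP for ADP, bring in phosphate, and move citrate, malate, 2-oxoglutarate, amino acids, cofactors and iron between the cytosol and the matrix. The proximal tubule of the kidney is dense in mitochondria, oxidizes fatty acids and makes glucose and ammonium, and each of these pathways crosses that membrane through carriers. TET2 is a dioxygenase that oxidizes 5-methylcytosine in DNA.

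The level of Tet2 was checked first. In FPKM (fragments per kilobase of transcript, scaled to the mapped reads of the library, a level per length), Tet2 read 9.15, 6.25 and 7.33 in WT baseline, 9.24, 16.6 and 10.3 in Tet2-/- baseline, 9.34, 3.97 and 3.85 in WT IR and 2.64, 3.20 and 1.76 in Tet2-/- IR libraries. Each library labelled Tet2-/- baseline thus lay above each WT baseline library, and the groups follow the GEO titles alone. The level of a whole transcript does not check a disruption of part of its gene. Total counts per library ran from 51007366 to 107969888. Markers of other cells differed between libraries. Of 12 proximal tubule markers, the summed level was 5146 to 5965 FPKM in WT baseline, 5214 to 6331 in Tet2-/- baseline, 2934 to 3591 in WT IR and 1128 to 1932 in Tet2-/- IR libraries. The 7 neutrophil markers summed to 74.3 to 131 FPKM in Tet2-/- IR libraries and to at most 9.36 FPKM in the others, and at most 1 of them was at 0 in a library. The 8 adipocyte markers summed to 135 and 277 FPKM in WT baseline replicates 2 and 3 and to 608 FPKM in Tet2-/- IR replicate 3, against 17.01 to 116 FPKM in the other 9 libraries, where up to 4 of them were at 0. In bulk kidney, fewer cells of a type and less RNA per cell cannot be told apart. The part of these markers in the results on carriers was not tested, except that adipocyte markers entered an alternative fit as a covariate.

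In WT baseline kidneys the ADP/ATP and phosphate carriers were among the most abundant members. Slc25a5, an ADP/ATP translocase, had the highest level at 674 ± 81.9 FPKM (mean ± SD, n = 3), followed by Slc25a3, the phosphate carrier, at 393 ± 15.8 FPKM. The next in order were Slc25a39, a carrier needed for mitochondrial glutathione uptake, at 337 ± 52.7 FPKM and Slc25a4, a further ADP/ATP translocase, at 188 ± 10.98 FPKM. Slc25a25, a calcium-regulated ATP-Mg/phosphate carrier, read 125 ± 45.1 FPKM and Slc25a10, the dicarboxylate carrier, 125 ± 8.67 FPKM. The SDs of Slc25a3 and Slc25a39 overlapped, as did those of Slc25a25 and Slc25a10, so these neighbours in the order were not separated. Together, 6 members had a mean of at least 100 FPKM in WT baseline, 26 at least 10, 14 lay between 1 and 10, and 7 were below 1. The members below 1 FPKM in WT baseline were also below 1 in every other group, among them Slc25a18, a glutamate carrier, and Slc25a31, an ADP/ATP translocase of germ cells. Slc25a5 has 2 further copies in the genome at 95% identity or more of its coding sequence and 8 at 90% or more, and Slc25a36 and Slc25a40 have 1 copy each at 95%, so reads can be shared with copies and these 3 levels are uncertain.

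**Figure D1:**
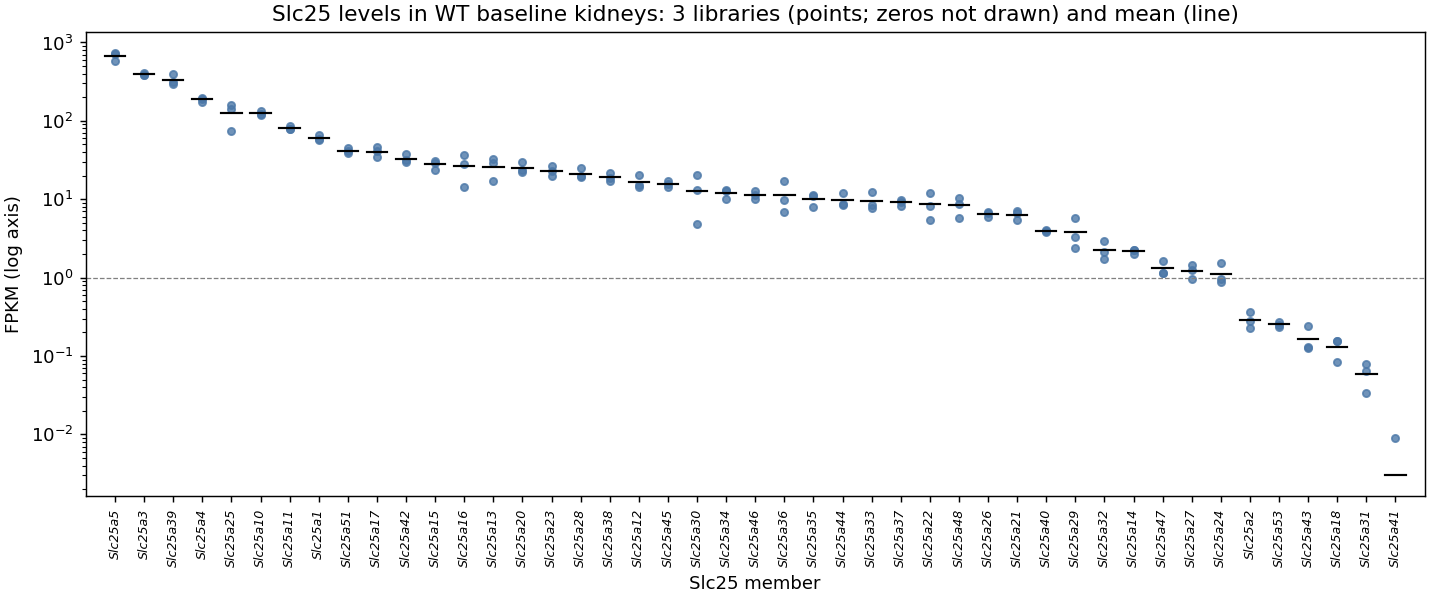
Level of Slc25 members in WT baseline kidneys in FPKM on a log axis; points are the 3 libraries, lines the mean, and the dashed line is 1 FPKM. Slc25a5, Slc25a3, Slc25a39 and Slc25a4 lead, and the members right of Slc25a24 stay below 1 FPKM.

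The summed level of the family was 2370 to 2539 FPKM in WT baseline, 2425 to 2765 in Tet2-/- baseline, 2649 to 2886 in WT IR and 2053 to 2288 in Tet2-/- IR libraries. The Tet2-/- IR libraries were thus below every library of the other groups, and the WT IR libraries were above every WT baseline library. Slc25a3, Slc25a4 and Slc25a5 together held 44.8% to 54.2% of it in each library. The number of members at 1 FPKM or more was between 38 and 41 in every library.

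IR in WT kidneys was asked first, as the response of carriers to ischemia in normal mice. Of the 47 members, 45 passed the filter on low counts and were tested in every comparison, while Slc25a41 and Slc25a54 were not. With edgeR and an adjusted p under 0.05 (Benjamini-Hochberg over all genes tested), 2 members rose and none fell, while 1.88% of all 16015 genes rose and 1.14% fell. A log2 fold change past 1 as well was met by 1 member, against 1.46% of all genes higher and 0.887% lower. In all, 11 members (24.4%) had an unadjusted p under 0.05, against 22.7% of all genes, and DESeq2 called 5 members higher and 1 lower, against 6.87% of all genes higher and 5.46% lower. The median log2 fold change was 0.06 over the 45 members and -0.03 over all genes.

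Slc25a24, the ATP-Mg/phosphate carrier that takes adenine nucleotides into mitochondria when cytosolic calcium rises, rose the most in WT kidneys. Its level was 0.958, 1.52 and 0.881 FPKM in WT baseline and 2.49, 7.29 and 6.43 FPKM in WT IR libraries. All WT IR libraries lay above all WT baseline libraries, with replicate 1 the lowest of the IR libraries, and the log2 fold change was 2.22 ± 0.44 (SE, adjusted p = 0.0481). Slc25a17, a peroxisomal carrier of coenzyme A, FAD and NAD, read 46.9, 34.1 and 40.9 FPKM at baseline and 80.8, 71.97 and 67.5 FPKM after IR, again without overlap, at a log2 fold change of 0.79 ± 0.15 (SE, adjusted p = 0.0428). Both calls depended on single libraries. Without any one of the 6 libraries Slc25a17 no longer passed, and Slc25a24 passed only without WT IR replicate 1, so 0 or 1 members were called with a library left out. Over all genes, 2.86% were called higher without WT IR replicate 1 and 0.253% to 0.551% in the other such fits.

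Other carriers gave values in WT IR kidneys that did not pass the test. Slc25a20, the carnitine-acylcarnitine carrier of fatty acid oxidation, read 22.4 to 29.5 FPKM at baseline and 34.2 to 46.8 FPKM after IR, at a log2 fold change of 0.69 ± 0.19 (SE, adjusted p = 0.0971). With the replicate number as a block it passed, at 0.68 ± 0.15 (SE, adjusted p = 0.0368). Slc25a37, the mitoferrin that imports iron, had a log2 fold change of 0.50 ± 0.12 (SE, adjusted p = 0.0780), with 8.23 to 9.78 FPKM at baseline and 12.4 to 13.97 FPKM after IR. In both, the groups did not overlap although the threshold was missed. Slc25a30, a relative of the uncoupling proteins described in kidney, went from 13.2, 4.88 and 20.5 FPKM to 23.2, 39.3 and 31.5 FPKM, a log2 fold change of 1.21 ± 0.49 (SE, adjusted p = 0.200); the baseline libraries spread over 4.88 to 20.5 FPKM.

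In Tet2-/- kidneys, IR changed 25 of the 45 tested members. Of these, 7 rose and 18 fell at an adjusted p under 0.05 with edgeR, while 22.9% of all 16359 genes rose and 20.3% fell. As a share of the tested members, 15.6% rose and 40.0% fell, so the lower members stood above the background share and the higher members below it, with no test of that difference. With a log2 fold change past 1 as well, 5 members rose (12.7% of all genes) and 7 fell (11.6% of all genes). The median log2 fold change was -0.40 over the members and 0.04 over all genes, and 31 of the 45 values were negative. The scaling bore on this split. Scaled by library sizes only, without TMM factors, the median of all genes moved to 0.27, and 7 members rose and 11 fell, where 32.2% of all genes rose and 14.1% fell. FPKM values carry no such factors, so ratios of FPKM lie above the fitted changes in this comparison.

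**Figure D2:**
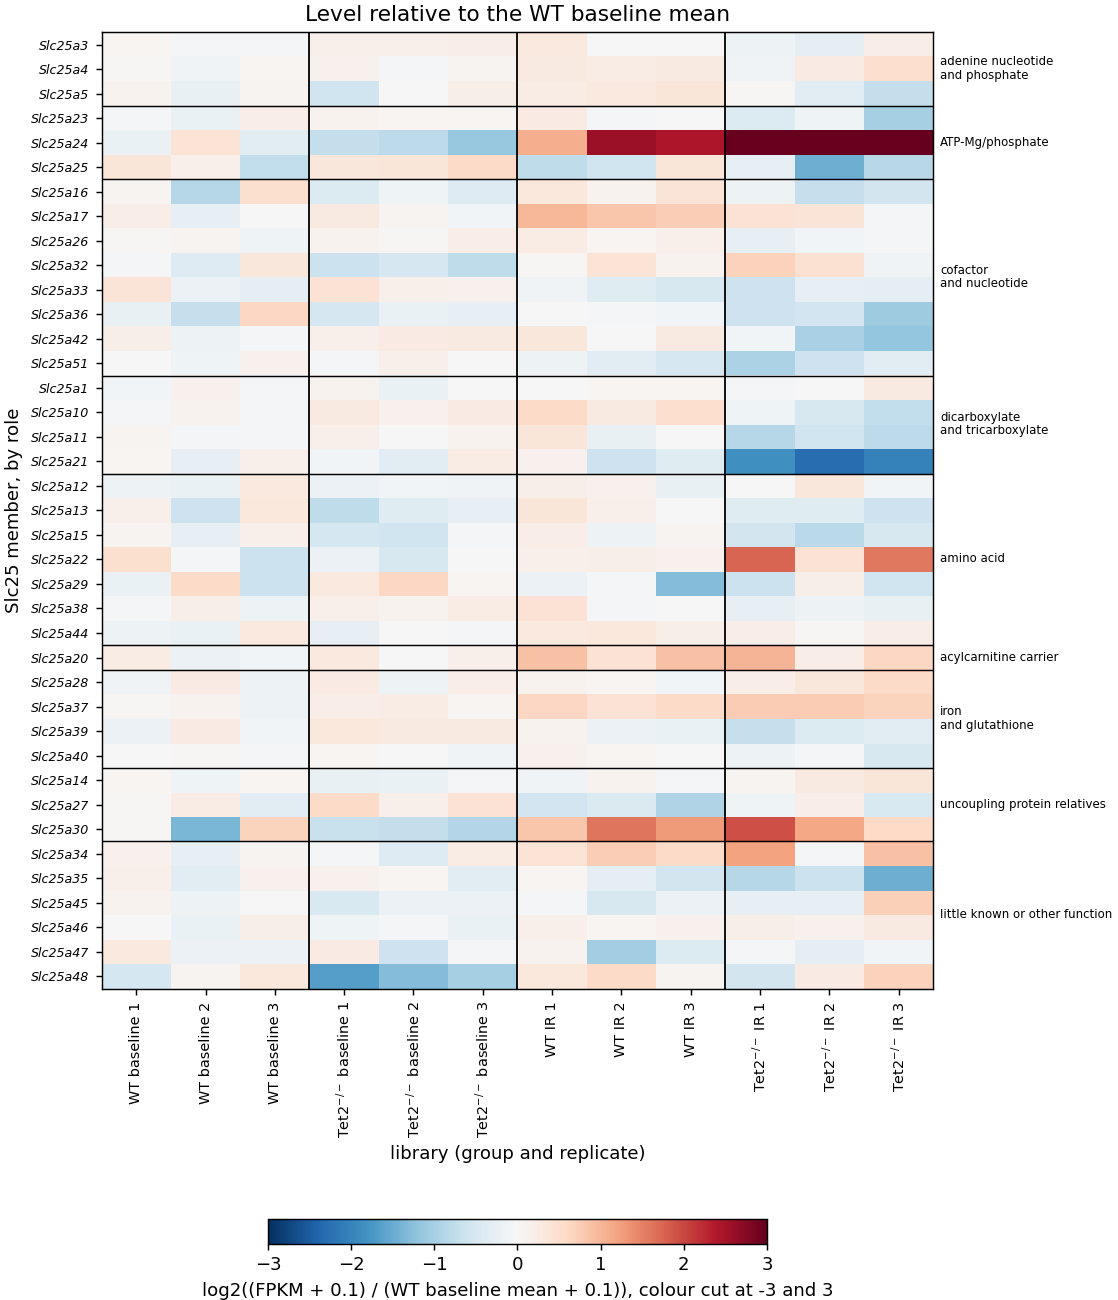
Level of 39 Slc25 members with a mean of at least 1 FPKM in some group, as log2 of FPKM + 0.1 relative to the WT baseline mean, in each of the 12 libraries (columns) with members ordered by role (rows). Slc25a24 is red in all IR libraries, and Slc25a21 is blue in the Tet2-/- IR libraries.

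The rise of Slc25a24 was again the largest. It read 0.649, 0.614 and 0.452 FPKM in Tet2-/- baseline and 16.8, 17.4 and 19.8 FPKM in Tet2-/- IR libraries, a log2 fold change of 4.72 ± 0.19 (SE, adjusted p = 4.36e-05). Of its 3 relatives among the ATP-Mg/phosphate carriers, Slc25a41 was not tested and the other 2 fell. Slc25a25, the calcium-regulated carrier with the highest level of this group, read 159.7, 160.3 and 185 FPKM at baseline and 106, 45.1 and 70.1 FPKM after IR and fell by 1.44 ± 0.32 on the log2 scale (adjusted p = 0.0100). Slc25a23 fell by 0.82 ± 0.18 (adjusted p = 0.00887, lost with library sizes alone and both limma fits), with 24.01 to 24.8 FPKM at baseline and 11.4 to 21.1 FPKM after IR. In none of these 3 genes did the Tet2-/- baseline and Tet2-/- IR libraries overlap. Exons of Slc25a23 overlap Gm17168 on the opposite strand.

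Among the carriers of ATP synthesis, none passed the test in Tet2-/- kidneys. Slc25a5 read 446, 671 and 767 FPKM at baseline and 695, 543 and 408 FPKM after IR, with overlapping groups and a log2 fold change of -0.46 ± 0.28 (SE, adjusted p = 0.219). Slc25a3 gave -0.47 ± 0.21 (SE, adjusted p = 0.107) and Slc25a4 -0.07 ± 0.20 (SE, adjusted p = 0.804) as log2 fold changes. Slc25a3 did pass as lower without Tet2-/- IR replicate 3, the library with the highest adipocyte markers, at -0.68 ± 0.18 (SE, adjusted p = 0.0214), and with the adipocyte covariate, at -0.78 ± 0.20 (SE, adjusted p = 0.0232).

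Of the 4 carriers of dicarboxylates and tricarboxylates, 3 fell, where 20.3% of all genes fell, and Slc25a1, the citrate carrier that supplies cytosolic acetyl groups, gave -0.14 ± 0.17 (SE, adjusted p = 0.508). Slc25a21, the carrier of 2-oxoadipate in lysine and tryptophan breakdown, read 5.995, 5.07 and 7.46 FPKM at baseline and 1.70, 1.22 and 1.48 FPKM after IR. It fell by 2.33 ± 0.24 on the log2 scale (adjusted p = 4.02e-04), the largest fall among the members. Slc25a11, which exchanges 2-oxoglutarate for malate in the malate-aspartate shuttle, read 90.1, 81.5 and 87.6 FPKM and then 45.004, 53.9 and 47.2 FPKM, and fell by 1.09 ± 0.12 (adjusted p = 6.06e-04). Slc25a10, which exchanges malate or succinate for phosphate, read 149.97, 136 and 148 FPKM and then 114, 88.9 and 74.9 FPKM, and fell by 0.90 ± 0.20 (adjusted p = 0.00860). In each of these 3 genes every IR library was below every baseline library. Exons of Slc25a10 and Slc25a21 overlap a gene on the opposite strand (Gm11788 and Pax9), and the sources used here do not state whether counting used the strand.

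The amino acid carriers went in both directions. Slc25a22, a glutamate carrier, rose by 1.35 ± 0.35 (adjusted p = 0.0182), from 7.61, 6.07 and 8.53 FPKM at baseline to 28.98, 11.6 and 25.9 FPKM after IR, and replicate 2 lay far nearer to the baseline libraries than the other 2. Without Tet2-/- IR replicate 1, or without Tet2-/- baseline replicate 1 or 2, that call was lost, as it was with the adipocyte covariate. Slc25a38, the glycine carrier of heme synthesis, fell by 0.63 ± 0.11 (adjusted p = 0.00311), with 20.7 to 22.5 FPKM at baseline and 16.1 to 17.5 FPKM after IR, and Slc25a29, a carrier of basic amino acids, fell by 0.95 ± 0.25 (adjusted p = 0.0199). The groups of Slc25a29 overlapped in FPKM (4.02 to 5.90 at baseline and 2.40 to 4.32 after IR), and the call was lost in 7 of 16 alternatives, among them library sizes alone, the adipocyte covariate and the fits without Tet2-/- baseline replicate 2 or Tet2-/- IR replicate 1. The aspartate-glutamate carriers Slc25a12 and Slc25a13 gave -0.06 ± 0.12 (SE, adjusted p = 0.705) and -0.27 ± 0.16 (SE, adjusted p = 0.205), and Slc25a15, the ornithine carrier of the urea cycle, gave -0.48 ± 0.20 (SE, adjusted p = 0.0936). With the replicate number as a block Slc25a15 passed, at -0.47 ± 0.14 (SE, adjusted p = 0.0302).

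Of 9 carriers of cofactors and nucleotides, 6 fell and Slc25a32 rose, where 20.3% of all genes fell and 22.9% rose. Slc25a42, the coenzyme A carrier, read 36.8, 39.1 and 39.7 FPKM at baseline and 31.5, 16.7 and 14.6 FPKM after IR and fell by 1.14 ± 0.28 (adjusted p = 0.0148), with the lowest values in replicates 2 and 3. That call was lost with the adipocyte covariate (adjusted p = 0.0827). Slc25a51, the NAD carrier, read 40.4, 46.5 and 42.1 FPKM and then 21.8, 27.2 and 33.2 FPKM and fell by 0.90 ± 0.20 (adjusted p = 0.00902). Slc25a33, a pyrimidine nucleotide carrier, fell by 0.88 ± 0.16 (adjusted p = 0.00377), with 10.4 to 13.1 FPKM at baseline and 6.19 to 8.14 FPKM after IR. No baseline library overlapped an IR library in these 3 genes. Exons of Slc25a51 overlap AL772376.2 on the same strand, by up to 125 bases, which counting by strand would not separate. Its coding sequence also has 1 copy at 90% identity or more. Exons of Slc25a33, and of Slc25a26 below, overlap a gene on the opposite strand (Gm13068 and Lrig1). Slc25a36, a further pyrimidine nucleotide carrier, fell by 0.70 ± 0.15 (adjusted p = 0.00925, lost in 4 of 16 alternatives, library sizes alone included), and Slc25a26, the carrier of S-adenosylmethionine, fell by 0.50 ± 0.15 (adjusted p = 0.0280), a call lost in 8 of 16 alternatives. Slc25a32, linked to folate and FAD uptake, rose by 0.81 ± 0.23 (adjusted p = 0.0254), with 1.28 to 1.55 FPKM at baseline and 2.10 to 3.73 FPKM after IR, and the call was lost without any of the Tet2-/- baseline libraries or without Tet2-/- IR replicate 1.

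Of the iron and glutathione carriers, Slc25a39 read 416, 409 and 408 FPKM in Tet2-/- baseline and 208, 251 and 265 FPKM in Tet2-/- IR libraries and fell by 1.02 ± 0.18 (adjusted p = 0.00343). Its paralog Slc25a40 fell by 0.47 ± 0.15 (adjusted p = 0.0397), a call that was lost in 13 of 16 alternatives, the replicate block (adjusted p = 0.0616) and every left-out library included. The mitoferrins differed, with 0.32 ± 0.10 (SE, adjusted p = 0.0403) for Slc25a37, a rise that was lost in 8 of 16 alternatives, among them the replicate block (adjusted p = 0.0780) and the fits without any Tet2-/- baseline library or Tet2-/- IR replicate 1 or 3, and 0.03 ± 0.17 (SE, adjusted p = 0.904) for Slc25a28. Slc25a20 gave 0.25 ± 0.22 (SE, adjusted p = 0.387).

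Among the remaining members, Slc25a30 rose from 8.09, 7.82 and 6.92 FPKM to 49.6, 28.9 and 19.6 FPKM, a log2 fold change of 1.84 ± 0.30 (SE, adjusted p = 0.00271) without overlap. Slc25a48, expressed in kidney and linked to choline transport, rose by 1.28 ± 0.35 (adjusted p = 0.0222), with 2.58 to 4.15 FPKM at baseline and 5.65 to 13.5 FPKM after IR, a call lost without Tet2-/- baseline replicate 1 or 2 and with the adipocyte covariate. Slc25a35 fell by 1.19 ± 0.21 (adjusted p = 0.00374), with 7.92 to 11.1 FPKM at baseline and 3.58 to 6.41 FPKM after IR; its exons overlap Rangrf on the opposite strand. Slc25a27, Slc25a2 and Slc25a43 were also among the 25 called members, and the latter pair stayed below 1 FPKM in every group mean. Among the 25 calls, 11 held in all 16 alternatives other than the log2 limit of 1. Of these, Slc25a11, Slc25a21, Slc25a24, Slc25a25, Slc25a30, Slc25a35 and Slc25a39 also passed that limit, 7 in all, while Slc25a10, Slc25a33, Slc25a38 and Slc25a51 did not. The number of members that rose was 2 without Tet2-/- baseline replicate 1 or 2, and 4 without Tet2-/- baseline replicate 3 or Tet2-/- IR replicate 1, where 14.5% to 18.8% of all genes rose. Beside these changes, 8 of 12 proximal tubule markers fell in the same comparison. So did 3 of 6 thick ascending limb, 2 of 4 distal convoluted tubule and 2 of 7 collecting duct markers. All 6 neutrophil markers tested rose. The 4 glomerulus markers rose as well (summed level 13.1 to 18.5 FPKM at baseline and 40.7 to 85.4 FPKM after IR). Of 7 macrophage markers, 3 rose and 1 fell. The part of these markers in the result was not tested.

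At baseline no member passed the test between the genotypes. None was called higher or lower with edgeR, where 0.0124% of all 16086 genes were called higher and 0% lower. Unadjusted p-values were under 0.05 in 8 members (17.8%), against 11.8% of all genes, and DESeq2 called 0 members higher and 1 lower, against 0.516% of all genes higher and 2.72% lower. The lowest value was that of Slc25a48, at -1.22 ± 0.28 (SE, adjusted p = 0.224). It read 5.79, 8.79 and 10.4 FPKM in WT and 2.58, 3.31 and 4.15 FPKM in Tet2-/- baseline libraries, and the groups did not overlap. Slc25a48 was the member that DESeq2 called lower, at -1.22 ± 0.29 (SE, adjusted p = 0.00257). Slc25a24 gave -0.88 ± 0.27 (SE, adjusted p = 0.313), with 0.881 to 1.52 FPKM in WT and 0.452 to 0.649 FPKM in Tet2-/- libraries. Slc25a39, at 297 to 396 FPKM in WT and 408 to 416 FPKM in Tet2-/- libraries, gave 0.38 ± 0.15 (SE, adjusted p = 0.403), and Slc25a5 gave -0.01 ± 0.23 (SE, adjusted p = 0.991). The median log2 fold change over the members was 0.06, against 0.00 over all genes.

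After IR, 8 members differed between the genotypes. In Tet2-/- IR against WT IR kidneys, 1 member was higher and 7 were lower, while 3.51% of all 16186 genes were higher and 6.17% lower. Past a log2 fold change of 1 as well, 1 member was higher (2.3% of all genes) and 1 was lower (3.85% of all genes). The median was -0.20 over the members and 0.04 over all genes.

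Slc25a24 was higher in Tet2-/- IR kidneys, at 16.8 to 19.8 FPKM against 2.49 to 7.29 FPKM in WT IR kidneys, by 1.63 ± 0.38 on the log2 scale (adjusted p = 0.0437). Slc25a21 was lower, at 1.22 to 1.70 FPKM against 4.06 to 7.002 FPKM, with a log2 fold change of -1.95 ± 0.28 (SE, adjusted p = 0.0133). Neither gene had overlapping groups. Slc25a10 read 74.9 to 114 FPKM in Tet2-/- IR and 151 to 185 FPKM in WT IR libraries, at -0.99 ± 0.22 (SE, adjusted p = 0.0378). Slc25a11 read 45.004 to 53.9 FPKM and 69.5 to 104 FPKM, at -0.90 ± 0.18 (SE, adjusted p = 0.0289). Both carry malate across the inner membrane, and in both the groups were apart.

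The other 4 lower members were a carrier of the malate-aspartate shuttle and 3 carriers of cofactors and nucleotides. Slc25a13 read 33.3, 28.8 and 26.1 FPKM in WT IR and 20.2, 20.1 and 16.7 FPKM in Tet2-/- IR libraries, at -0.73 ± 0.12 (SE, adjusted p = 0.0203). Its paralog Slc25a12, with 14.2 to 18.6 and 15.5 to 20.9 FPKM, gave -0.04 ± 0.12 (SE, adjusted p = 0.853). Slc25a16, linked to coenzyme A uptake, read 32.8, 28.4 and 34.4 FPKM and 23.6, 16.4 and 17.9 FPKM, at -0.83 ± 0.20 (SE, adjusted p = 0.0485). The groups of Slc25a13 and of Slc25a16 did not overlap, and those of Slc25a12 did. Slc25a36 read 10.6 to 11.4 FPKM and 5.36 to 7.59 FPKM, at -0.80 ± 0.14 (SE, adjusted p = 0.0206). Slc25a17 read 67.5 to 80.8 FPKM and 39.95 to 55.1 FPKM, at -0.67 ± 0.14 (SE, adjusted p = 0.0339). In these last 2 genes too, every Tet2-/- IR library lay below every WT IR library.

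Several members missed the threshold after IR. Slc25a15 gave -0.75 ± 0.19 (SE, adjusted p = 0.0503), with 25.1 to 31.96 FPKM in WT and 15.9 to 20.004 FPKM in Tet2-/- libraries, and Slc25a22 gave 1.14 ± 0.35 (SE, adjusted p = 0.0832), with 9.46 to 9.75 and 11.6 to 28.98 FPKM. Neither gene had overlapping groups. Slc25a5 gave -0.70 ± 0.24 (SE, adjusted p = 0.111). Of the 8 calls, only that of Slc25a21 held without each of the 6 libraries, and the number of lower members fell to between 1 and 6 with 1 library left out, with 1 left without WT IR replicate 1 or 3 or Tet2-/- IR replicate 2, 3 without Tet2-/- IR replicate 1 or 3, and 6 without WT IR replicate 2. Over all genes the share called lower fell alike, to between 1.52% and 4.79%. The call of Slc25a24 was lost without WT IR replicate 2 or 3 and without each Tet2-/- IR replicate. With the adipocyte markers as a covariate, none of the 8 was called, and over all genes 115 were called higher and 228 lower. The log2 fold changes with the covariate were -2.001 ± 0.36 (SE, adjusted p = 0.0514) for Slc25a21, 1.47 ± 0.43 (SE, adjusted p = 0.108) for Slc25a24, -0.88 for Slc25a11 and Slc25a10 and -0.68 for Slc25a13. In the same comparison 4 of 12 proximal tubule markers were lower and 5 of 6 tested neutrophil and 2 of 7 macrophage markers (Itgam and Cd14) higher. None of the 4 glomerulus markers was called, at a median log2 fold change of 1.74. Single libraries stood apart in such markers. The glomerulus markers summed to 3.10 FPKM in WT IR replicate 3, against 23.8 and 24.3 FPKM in the other WT IR libraries, and the 5 endothelium markers to 4.97 FPKM against 28.1 and 39.2 FPKM. The 6 thick ascending limb markers summed to 392.5 FPKM in Tet2-/- IR replicate 3, against 2150 and 2640 FPKM in the other Tet2-/- IR libraries. The part of these markers in the result was not tested.

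**Figure D3:**
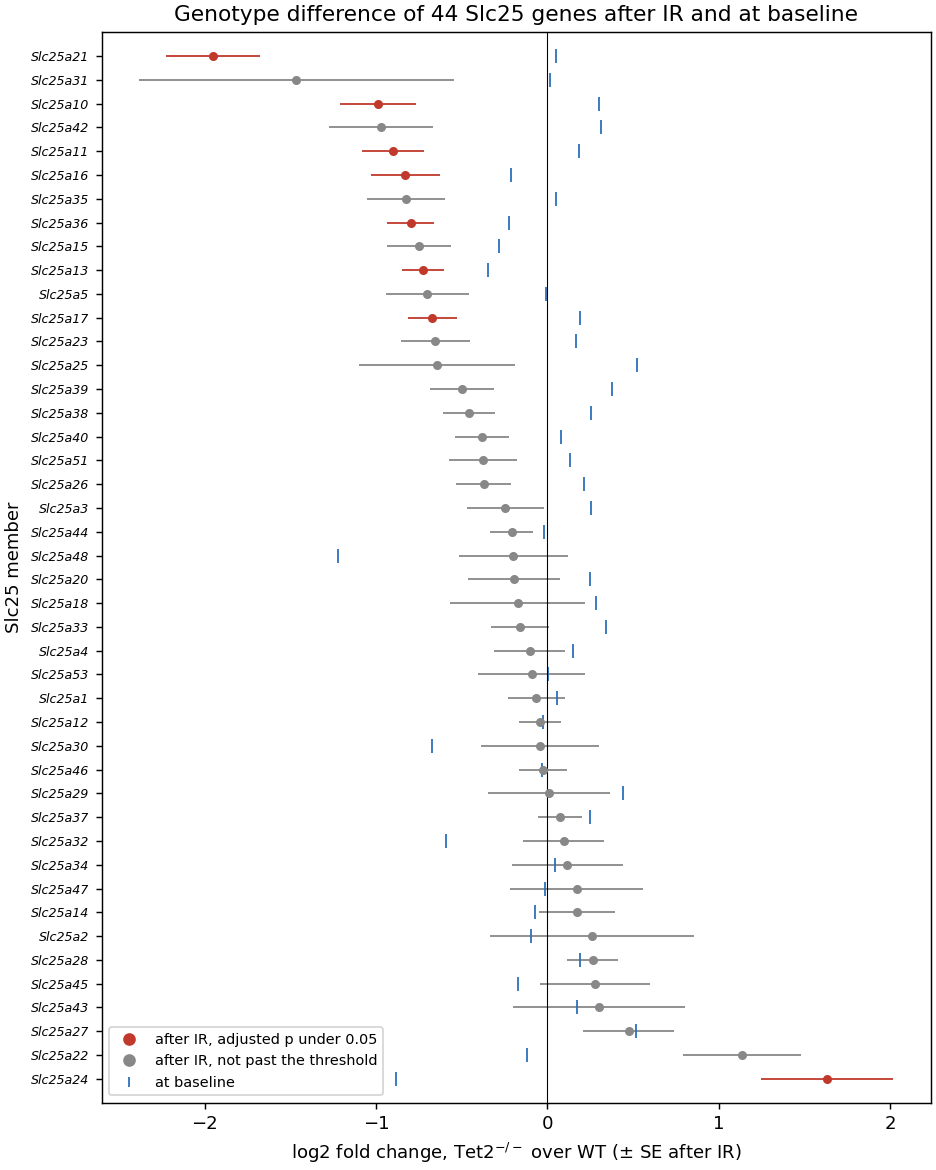
Log2 fold change of Tet2-/- over WT for 44 Slc25 genes after IR (points ± SE, red where the adjusted p is under 0.05) and at baseline (blue ticks). Slc25a24 lies at 1.63 and Slc25a21 at -1.95 after IR; 7 of the 8 red points lie left of 0.

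The difference between the IR effects was tested itself, as the interaction of genotype and IR over all 12 libraries. It was called in 7 members, 1 with a higher and 6 with a lower IR effect in Tet2-/- kidneys, where 3.79% of all 16741 genes were called higher and 5.39% lower. Slc25a24 gave 2.54 ± 0.50 (SE, adjusted p = 0.0131) on the log2 scale, with IR effects of 2.22 in WT and 4.72 in Tet2-/- kidneys. Slc25a21 gave -1.96 ± 0.34 (SE, adjusted p = 0.00822), with -0.32 in WT and -2.33 in Tet2-/- kidneys. Slc25a10 gave -1.25 ± 0.24 (SE, adjusted p = 0.0123), with IR effects of 0.39 and -0.90, and Slc25a11 -1.05 ± 0.20 (SE, adjusted p = 0.0113), with 0.00 and -1.09. These 4 carriers were called in the interaction without each of the 12 libraries in turn.

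The other 3 were called with smaller differences. Slc25a39 gave -0.84 ± 0.22 (SE, adjusted p = 0.0395) and Slc25a38 -0.67 ± 0.18 (SE, adjusted p = 0.0403), and each was lost in 16 of 22 alternatives, among them the replicate block and each library left out but WT baseline replicate 2, WT IR replicate 2 and Tet2-/- IR replicate 3. Slc25a17 gave -0.82 ± 0.21 (SE, adjusted p = 0.0357). It rose in WT kidneys, and in Tet2-/- kidneys it read 38.5 to 49.3 FPKM at baseline and 39.95 to 55.1 FPKM after IR, an IR effect of -0.08 ± 0.14 (SE, adjusted p = 0.687). It was lost in 11 of 22 alternatives, among them the fits without WT baseline replicate 3, Tet2-/- baseline replicate 1 or 2, WT IR replicate 1 or 3, or Tet2-/- IR replicate 3. Slc25a42 missed the threshold with edgeR, at an adjusted p of 0.0531. It was called in other fits, among them DESeq2 at -1.29 ± 0.38 (SE, adjusted p = 0.00803), the upper quartile and the replicate block. With a library left out, between 4 and 9 members were called, and 4 were called without Tet2-/- baseline replicate 1 or 2 or WT IR replicate 1 or 3. Over all genes, 0.865% to 5.77% were then called higher and 2.86% to 6.27% lower. None of the 7 was called without WT baseline replicates 2 and 3 together, where 2 of all 17237 genes were called higher and 8 lower, or with the adipocyte covariate, where 24 of 16741 were called higher and 62 lower. Without both libraries the differences were 2.28 ± 0.58 (SE, adjusted p = 0.107) for Slc25a24, -1.95 ± 0.46 (SE, adjusted p = 0.0909) for Slc25a21, -1.35 for Slc25a10 and -1.02 for Slc25a11. With the covariate they were 2.20 ± 0.61 (SE, adjusted p = 0.103) for Slc25a24, -2.05 ± 0.47 (SE, adjusted p = 0.0720) for Slc25a21, -1.11 for Slc25a10 and -0.9996 for Slc25a11. Over all 7 members each of these differences kept its sign. In the interaction 4 of 12 proximal tubule markers were lower, and 3 of 6 tested neutrophil markers and 3 of 8 adipocyte markers were higher; their part in the result was not tested.

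**Figure D4:**
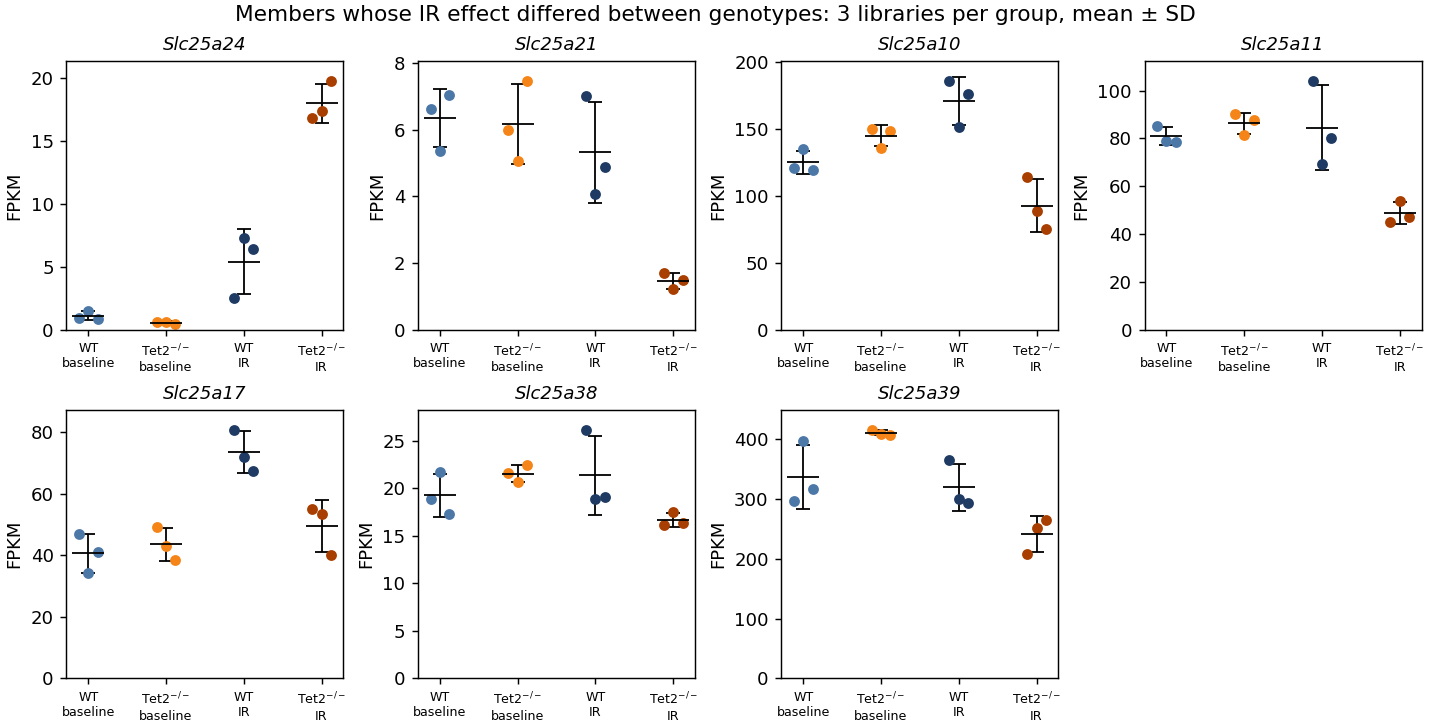
FPKM of the 7 members whose IR effect differed between the genotypes, in each library of the 4 groups (points) with mean ± SD (n = 3). Slc25a24 reaches 16.8 to 19.8 FPKM in Tet2-/- IR libraries, and Slc25a21 stays at 1.22 to 1.70 FPKM there.

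Set side by side over the 45 tested members, the IR effects had the same sign in both genotypes in 27, and the effect was lower in Tet2-/- kidneys in 32. Across these genes, which are not independent replicates, Pearson's r was 0.74 and Spearman's rho 0.57. The median of the interaction was -0.42 over the members and 0.10 over all genes.

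**Figure D5:**
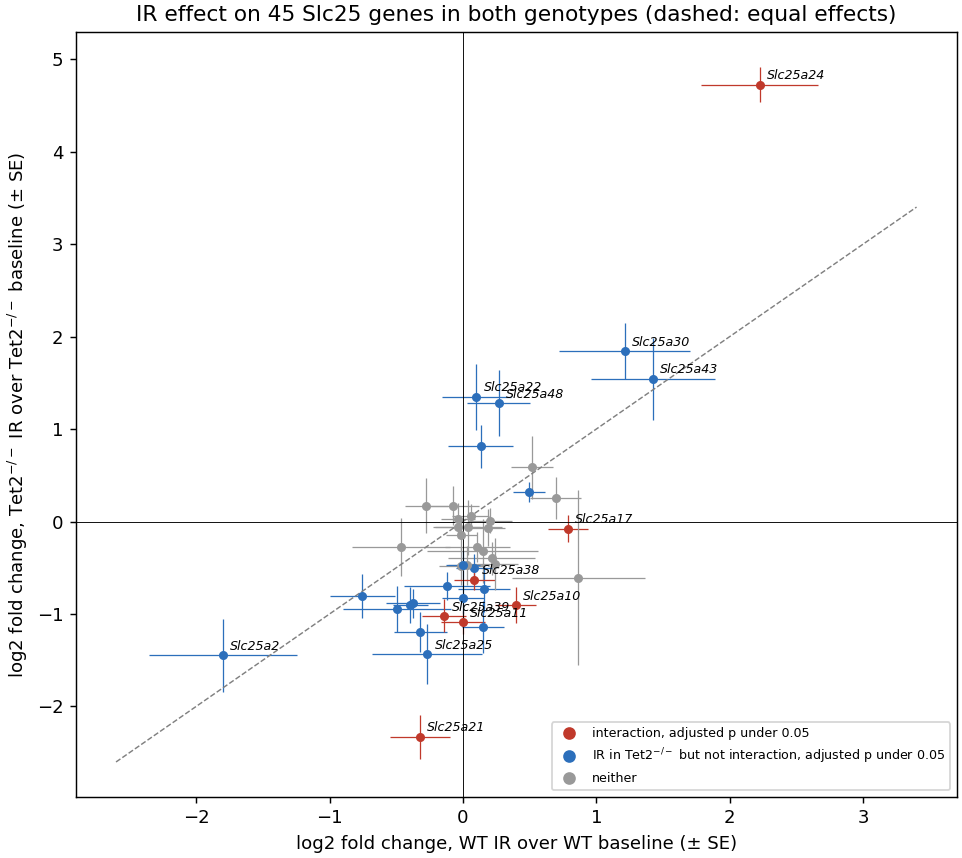
IR effect in WT (horizontal) and in Tet2-/- kidneys (vertical) for 45 Slc25 genes, as log2 fold changes ± SE, with equal effects on the dashed line. Slc25a24 lies far above the line, and Slc25a21, Slc25a10 and Slc25a11 lie below it.

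The 4 members called in the interaction without each library are given with the coordinates of the files on mm9. Slc25a24 spans chr3:108926067-108971327 on the plus strand and Slc25a21 chr12:57813621-58298459 on the minus strand. Slc25a10 spans chr11:120353151-120362475 on the plus strand and Slc25a11 chr11:70457529-70460541 on the minus strand. Promoter windows of 250 bases before and 50 bases after the start were read from RefSeq on GRCm38.p6, where 36 of the 47 members had 46 windows. The median number of CpG pairs in the 250 bases before the start was 11.5 over these windows and 6 over all 32851 windows. Slc25a24 held 14, Slc25a10 9 and Slc25a11 19, and the 2 windows of Slc25a21 held 2 and 4. No DNA methylation was measured in the libraries used here. The 120 bases before the start of these 4 genes are shown because TET2 acts on cytosines of CpG pairs, which are in capitals. They lie at chr3:109123029-109123148 (plus strand) for Slc25a24, chr12:57160644-57160763 and chr12:57197473-57197592 (minus strand) for the 2 starts of Slc25a21, chr11:120491717-120491836 (plus strand) for Slc25a10 and chr11:70647040-70647159 (minus strand) for Slc25a11, 5′ to 3′ on the strand of the gene. The stretches of Slc25a21 hold 0 and 1 CpG pairs and that of Slc25a24 holds 11.
Slc25a24: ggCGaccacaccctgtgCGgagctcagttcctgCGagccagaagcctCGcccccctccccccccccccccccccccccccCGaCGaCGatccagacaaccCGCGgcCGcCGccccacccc
Slc25a21: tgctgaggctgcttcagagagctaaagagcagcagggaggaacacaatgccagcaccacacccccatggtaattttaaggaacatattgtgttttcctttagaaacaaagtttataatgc
Slc25a21, other start: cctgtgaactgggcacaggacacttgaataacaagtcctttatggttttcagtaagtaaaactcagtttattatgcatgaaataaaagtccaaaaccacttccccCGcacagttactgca
Slc25a10: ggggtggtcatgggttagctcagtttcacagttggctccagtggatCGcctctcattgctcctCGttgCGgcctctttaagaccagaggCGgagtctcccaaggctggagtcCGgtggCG
Slc25a11: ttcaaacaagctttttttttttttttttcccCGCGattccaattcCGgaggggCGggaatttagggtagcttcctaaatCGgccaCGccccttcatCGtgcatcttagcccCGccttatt

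The same windows were searched for 4 motifs on both strands. The estrogen-related receptor motif TCAAGGTCA was in 0 of 46 member windows and 0.423% of all windows, and the core of the NRF1 motif, GCATGCGC, in 2 (4.35%) against 2.71%. The ETS motif CCGGAAGT was in 1 (2.17%) against 3.89%, and the cyclic AMP response element TGACGTCA in 2 (4.35%) against 1.79%. The NRF1 core was in windows of Slc25a31 and Slc25a54, the ETS motif in that of Slc25a20 and the last motif in those of Slc25a25 and Slc25a36. In Tet2-/- kidneys Slc25a25 and Slc25a36 were among the 40.0% of tested members that fell with IR, Slc25a20 and Slc25a31 were not called, and Slc25a54 was not tested. The windows with the last motif are shown with the motif in capitals as the 2 matches with a called member. They lie at chr2:32424183-32424242 and chr9:97111169-97111228 on GRCm38.p6, both on the minus strand. A match describes letters in the window and is no measured binding site.
Slc25a25: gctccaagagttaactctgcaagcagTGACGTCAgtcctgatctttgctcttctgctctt
Slc25a36: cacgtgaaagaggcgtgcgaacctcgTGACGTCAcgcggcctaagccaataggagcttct

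Related genes were counted from lists written for this purpose. The uncoupling proteins belong to the same family under other symbols. Of 5 listed family members under other symbols, 2 were called higher in the interaction, Ucp1 among them, where 3.79% of all genes were called higher. With IR in Tet2-/- kidneys, 2 of the 4 tested rose and 1 fell, where 22.9% of all genes rose and 20.3% fell. Ucp2, a widely expressed uncoupling protein, read 40.2, 75.7 and 39.7 FPKM in WT baseline, 90.98, 36.5 and 28.5 in Tet2-/- baseline, 167, 228 and 258 in WT IR and 507, 129 and 368 in Tet2-/- IR libraries. It rose by 2.02 ± 0.31 in WT (adjusted p = 0.0263) and by 2.47 ± 0.61 in Tet2-/- kidneys (adjusted p = 0.0146) on the log2 scale, and the interaction was 0.49 ± 0.75 (SE, adjusted p = 0.713). Ucp1, the uncoupling protein of brown fat, was at most 0.705 FPKM outside WT baseline replicates 2 and 3, which read 4.32 and 4.49 FPKM, the libraries with the high adipocyte markers.

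Of 29 other transport genes of the mitochondrial membranes, 3 rose and 11 fell with IR in Tet2-/- kidneys, where 22.9% of all genes rose and 20.3% fell. In WT kidneys 1 rose and none fell, where 1.88% of all genes rose and 1.14% fell. Mpc2, a subunit of the pyruvate carrier, read 311 ± 18.9 FPKM in Tet2-/- baseline and 96.6 ± 3.62 FPKM in Tet2-/- IR libraries and fell by 1.94 ± 0.14 (adjusted p = 1.26e-04). Sfxn2, a sideroflexin, fell by 1.59 ± 0.19 (adjusted p = 6.66e-04), and Sfxn3 rose by 0.69 ± 0.19 (adjusted p = 0.0230). After IR, 4 of the 29 were lower in Tet2-/- than in WT kidneys and none was higher, where 6.17% of all genes were lower and 3.51% higher.

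Of 31 tested enzymes that use the carried substrates, 4 rose and 12 fell with IR in Tet2-/- kidneys (22.9% and 20.3% of all genes), and 7 were lower after IR in Tet2-/- than in WT kidneys (6.17% of all genes). Acadm, which oxidizes medium-chain fatty acids, read 692 ± 115 FPKM in Tet2-/- baseline and 138 ± 37.7 FPKM in Tet2-/- IR libraries and fell by 2.58 ± 0.27 (adjusted p = 4.18e-04). Pank1, which starts coenzyme A synthesis, fell by 2.21 ± 0.28 (adjusted p = 8.74e-04), and Glud1, the glutamate dehydrogenase, rose by 1.50 ± 0.35 (adjusted p = 0.0121).

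Of 13 regulators of mitochondrial genes, 2 rose and 4 fell with IR in Tet2-/- kidneys, against 22.9% and 20.3% of all genes. Esrra, a nuclear receptor that drives mitochondrial genes, read 58.9, 54.6 and 57.8 FPKM in Tet2-/- baseline and 24.9, 36.5 and 29.9 FPKM in Tet2-/- IR libraries and fell by 1.17 ± 0.15 (adjusted p = 9.35e-04). It was lower in Tet2-/- IR than in WT IR kidneys as well, at -0.91 ± 0.19 (SE, adjusted p = 0.0306). Ppargc1a, a coactivator of Esrra, fell by 0.69 ± 0.20 with IR in Tet2-/- kidneys (adjusted p = 0.0282) and gave -0.62 ± 0.23 (SE, adjusted p = 0.126) between the genotypes after IR.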

How the data were processed

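Kidney RNA of 12 male mice was sequenced, 1 library per mouse and 3 per group, and groups follow the GEO labels. For these, STAR was used by the authors for alignment to mm9 and HOMER for counting over RefSeq transcripts. Unnormalized counts and FPKM were both deposited; tool versions and strand use are not given in the sources used here. Since the deposited counts have a step of 0.5 and 38.7% of them are fractional, they were treated as estimated counts and rounded.

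Levels are FPKM. Each comparison used its own 6 libraries in edgeR 4.0.16 (R 4.3.3) with TMM factors, the standard filter on low counts, the quasi-likelihood test and p-values adjusted by Benjamini-Hochberg across every gene tested; the interaction used 12. All tests are two-sided and were tested on simulated data. SEs of log2 fold changes were taken from the F statistic. The standard edgeR limit was an adjusted p under 0.05; the study's added limit of 1 on the log2 scale was an alternative. Other alternatives were DESeq2 1.42.0, limma 3.58.1 on log2 FPKM, other scalings and filters, all 12 libraries in a single fit, a replicate block, the mean log2 level of 8 adipocyte markers as a covariate and each library left out. Leaving out the 2 WT baseline libraries with high adipocyte markers was chosen after seeing the data.

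In WT, same-numbered baseline and IR libraries deviated together from their group means with correlations of 0.38, 0.363 and 0.358. In Tet2-/- libraries these correlations were 0.135, 0.359 and 0.222. The mice differ, so the pairing rests on the correlations only. Between genotypes not every pair was over 0.1, with correlations of -0.186, -0.167 and 0.0709 at baseline and 0.00257, 0.230 and 0.320 after IR. Copies and overlapping exons were found with BLAST 2.17.0 and the mm9 annotation. The members, lists, named genes and tests were chosen with earlier results of these data known. Named genes are all called in a genotype comparison or the interaction, up to 10 per direction called in an IR comparison at a mean of 1 FPKM or more, the most abundant 5, carriers of well-known substrates, and up to 4 per related list; others are named after their values were seen. Figures were drawn with matplotlib 3.10.9. Some items counted among the members and lists are not reported here by name, nor drawn as labelled rows in the figures.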

Additional observations from a re-analysis of the deposited data

Results flagged for a closer look

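The IR effects of 7 members differed between the genotypes by the interaction test over 12 libraries (edgeR, adjusted p under 0.05). The difference, Tet2-/- minus WT on the log2 scale, was 2.54 for Slc25a24. It was -1.96 for Slc25a21, -1.25 for Slc25a10 and -1.05 for Slc25a11. It was -0.84 for Slc25a39, -0.82 for Slc25a17 and -0.67 for Slc25a38. The 4 members named first were called without each of the 12 libraries, and the other 3 were not. None of the 7 was called with the adipocyte covariate, where 24 of all 16741 genes were called higher and 62 lower, or without WT baseline replicates 2 and 3, where 2 of 17237 were called higher and 8 lower. The differences with the covariate were 2.20 for Slc25a24, -2.05 for Slc25a21, -1.11 for Slc25a10 and -0.9996 for Slc25a11, and without both libraries they were 2.28, -1.95, -1.35 and -1.02.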

How the results depend on the processing

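None of the 42 called values of members changed sign in any alternative, and 11 calls, all of the IR effect in Tet2-/- kidneys, held in all of them but the fold limit, which 7 of the 11 passed. Of 183 values that were not called, 79 changed sign and 31 were called in at least 1 alternative. For the IR effect in WT (2 higher, 0 lower), 1 member was higher with the fold limit, with the upper quartile and with limma on log2(FPKM + 1), 5 with DESeq2 (6.87% of all genes), and 0 with the adipocyte covariate or without WT baseline replicates 2 and 3. Of all genes, 1.46% were higher with the fold limit, 1.87% with the upper quartile and 2.19% with that limma fit. DESeq2 and the fit of all 12 libraries each called 1 lower (5.46% and 2.57% of all genes). For the IR effect in Tet2-/- (7 higher, 18 lower), 4 were higher with the covariate, and 7 were lower with the fold limit and 11 with library sizes alone or either limma fit, where 14.1%, 13.4% and 13.9% of all genes were lower. The covariate called 21.9% of all genes higher. DESeq2 called 1 member lower at baseline. After IR (1 higher, 7 lower), DESeq2 called 2 higher and 13 lower (8.95% and 11.4% of all genes), the fit of all 12 libraries 2 and 12 (8.37% and 10.7%), the covariate 0 and 0 (0.71% and 1.41%), and the fold limit 1 lower. The interaction (7) was called in 4 members with the fold limit, where 486 of all 16741 genes were higher and 662 lower. It was also called in 4 with library sizes alone (6.74% of all genes higher and 4.18% lower) or limma on log2(FPKM + 1) (6.39% and 3.56%). DESeq2 called 12 members (7.23% and 9.56%), and the covariate called 0 (0.143% and 0.37%). The causes were not tested. The covariate called 0 of all genes in the IR effect in WT, and the fit without both libraries, which keeps 1 WT baseline library assumed to vary like the others, called 0 higher and 1 lower, so those counts say nothing about the members.

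With each library left out in turn, 0 to 1 members were higher and 0 lower in the IR effect in WT (0.253% to 2.86% and 0.228% to 1.36% of all genes). In Tet2-/- kidneys, 2 to 8 were higher and 13 to 17 lower (14.5% to 23.4% and 13.7% to 21%). After IR, 0 to 1 were higher and 1 to 6 lower between genotypes (0.425% to 2.49% and 1.52% to 4.79%). The interaction was called in 4 to 9 (0.865% to 5.77% of all genes higher and 2.86% to 6.27% lower). With the replicate block, where numbers pair the libraries of the IR comparisons, 3 members rose and 0 fell in WT (4.11% and 5.18% of all genes) and 6 rose and 18 fell in Tet2-/- (22.9% and 21.4%). Between the genotypes not every same-number correlation was over 0.1. There the block gave 1 higher and 9 lower after IR (4.09% and 5.88% of all genes). In the interaction it called 8 members (6.12% of all genes higher and 6.43% lower).

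Groups of 3 libraries, no sham group and 1 time point limit these comparisons. Replicates are separate mice, FPKM gives no counting error of its own, and members below 1 FPKM were measured with few counts.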
